A study of Mus musculus with 18 samples.

Results

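The genes described here are 10 neuronal genes, Dcx, Elavl4, Ina, Stmn3, Rtn1, Nnat, Nsg2, Tubb3, Tmem130 and Map2, out of 17903 genes named on the arrays. They were chosen from measured values, because their signal differed between wild-type (wt) and Tcf3 knockout (ko) reprogramming cultures on day 26. They are represented by 21 of 40508 probe sets, of which 5 lay at the lowest recorded value on all 18 arrays (2 of Dcx, 1 of Nsg2 and 2 of Map2). The other 16 were used, and each gene is described by the probe set that is brightest on average. Values are log2 RMA signal, a background-corrected and normalized probe brightness, so a difference of 1 is a 2-fold difference. Every array has a floor of 5.64, the log2 of 50, and a gene recorded there may have had any lower level.

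All arrays held RNA of mouse cells on the way to, or established as, induced pluripotent stem cells (iPSC), and the study asked how Wnt signalling and Tcf proteins act on that process. OCK denotes reprogramming with Oct4, c-Myc and Klf4, and OSK with Oct4, Sox2 and Klf4. Tcf3 is the older name of Tcf7l1, a DNA-binding protein that represses Wnt target genes in pluripotent cells. OCK cultures of wt cells and of Tcf3 ko cells were each sampled on day 11, 15, 19, 22 and 26, and each sample gave 1 array. The established iPSC were 1 OSK clone of wt genotype, 2 OSK clones of ko genotype and 2 OCK clones of ko genotype. A partial iPSC clone, which is a line stalled before pluripotency, was made with OCK and was wt for Tcf3. It was treated with a control siRNA on 1 array and with Tcf3 siRNA A or B on 1 array each, and collected on day 2. All 3 partial arrays are 1 clone, and no OCK wt iPSC clone was analysed here.

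Neurons are built around long processes, and much of what distinguishes their RNA encodes the microtubules, neurofilaments and membranes of those processes. Microtubule genes such as Tubb3, Dcx and Map2 are switched on as progenitors leave the cell cycle, and RNA-binding proteins of the Elav family stabilise many neuronal transcripts. Outside the nervous system many such genes are held down by the repressor REST, whose level is high in pluripotent cells and falls as neurons form.

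Precision is limited by how few arrays there are. Whether arrays of a group come from separate cultures is not in the labels, so a p-value measures only the spread between the arrays at hand, and that may be technical. It is also unknown whether 1 culture per genotype was followed over the days, and then culture and genotype cannot be told apart. Array medians lay between 5.85 and 5.94. Tcf7l1, the targeted gene, lay between 9.06 and 9.90 in wt cultures and between 8.10 and 9.48 in ko cultures. It was 10.68 in the OSK wt clone, 9.37 to 9.49 in the OSK ko clones and 9.45 to 9.56 in the OCK ko clones. On the control siRNA array it was 9.93, on those of the Tcf3 siRNAs 8.77 to 8.80. It was thus lower where Tcf3 was targeted, yet far above the floor. Where the deletion sits within the gene, and so whether these probes fall inside it, is unknown. The fibroblast collagen gene Col1a1 lay between 11.92 and 14.08 in the cultures and between 6.42 and 8.50 in the iPSC clones, where the pluripotency gene Nanog lay between 12.55 and 13.18.

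All 10 genes were found in RefSeq (build GRCm38.p6), with 17 start sites among them. The 250 bases before each start were searched on both strands for 4 motifs, because the genes moved together in the cultures and because Tcf proteins, REST and neurogenic factors bind known sequences. The motif bound by Tcf and Lef proteins was searched as CTTTGAT, the left and right ends of the REST site as TTCAGCACC and GGACAGC, and an E-box, the kind of site bound by neurogenic helix-loop-helix factors, as CAGCTG. None of these letters overlapped another motif in the windows printed. The windows of 4 genes that hold 1 match each are shown 5′ to 3′ on the strand of the gene, with the match in capitals. Ina lies at chr19:47014431-47014680 on the plus strand and holds the E-box. Stmn3 lies at chr2:181314501-181314750 on the minus strand and holds the Tcf motif at its 3′ end. Nsg2 lies at chr11:32000450-32000699 on the plus strand and holds the left REST motif. Map2 lies at chr1:66175079-66175328 on the plus strand and holds the right REST motif, which reads as its reverse complement GCTGTCC there.
Ina: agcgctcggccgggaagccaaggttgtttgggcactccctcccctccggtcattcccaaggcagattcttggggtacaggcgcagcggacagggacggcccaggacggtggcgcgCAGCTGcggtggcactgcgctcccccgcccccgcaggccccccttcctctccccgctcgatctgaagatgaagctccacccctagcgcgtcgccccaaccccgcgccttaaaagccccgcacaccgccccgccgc
Stmn3: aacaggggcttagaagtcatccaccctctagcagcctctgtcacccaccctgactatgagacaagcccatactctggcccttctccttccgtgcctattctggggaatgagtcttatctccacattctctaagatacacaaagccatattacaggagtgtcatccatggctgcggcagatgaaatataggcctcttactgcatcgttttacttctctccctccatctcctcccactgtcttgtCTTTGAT
Nsg2: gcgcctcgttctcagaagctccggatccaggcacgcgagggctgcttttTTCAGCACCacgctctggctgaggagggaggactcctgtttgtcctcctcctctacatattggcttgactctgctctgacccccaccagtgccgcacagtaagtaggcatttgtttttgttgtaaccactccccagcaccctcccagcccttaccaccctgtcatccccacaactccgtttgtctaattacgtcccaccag
Map2: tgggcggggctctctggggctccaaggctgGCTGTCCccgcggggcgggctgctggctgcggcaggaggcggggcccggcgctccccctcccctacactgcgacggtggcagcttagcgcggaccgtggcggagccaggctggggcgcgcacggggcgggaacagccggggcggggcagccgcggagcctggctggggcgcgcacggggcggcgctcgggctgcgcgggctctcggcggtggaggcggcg

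Stmn3 was the 1 gene of the 10 with the Tcf motif, in 1 of the 17 windows. Of all 32851 RefSeq windows of this length 3.21% hold it. The left REST motif was found in Nsg2 alone, in 1 of 17 windows, against 0.301% of all windows. Map2 and Rtn1 held the right REST motif, in 2 of 17 windows, against 5.28% of all windows. Elavl4 and Ina held the E-box, in 3 of 17 windows, against 13.0% of all windows. The 2 matching windows of Elavl4 overlap and hold the same E-box, so that there is 1 match in each gene. The motifs were thus spread over different genes, and no motif was in more than 2 of the 10. A match is a string of letters and no measured binding site, and its absence says only that these letters are not in this window.

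In both genotypes most of the 10 genes were at or near the floor up to day 19, were well above it on day 22, and then parted. Between day 22 and day 26 they were higher again in the wt culture and lower again in the ko culture. The median of the 10 in the wt culture was 5.64, 5.71, 5.64, 8.18 and 10.01 on days 11, 15, 19, 22 and 26. In the ko culture it was 5.64, 5.64, 5.65, 8.22 and 6.40. The name of late wild-type genes therefore holds for day 26, while on day 22 the ko culture had them at like levels. In bulk samples, fewer cells of a type and less RNA per cell cannot be told apart.

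**Figure D1:**
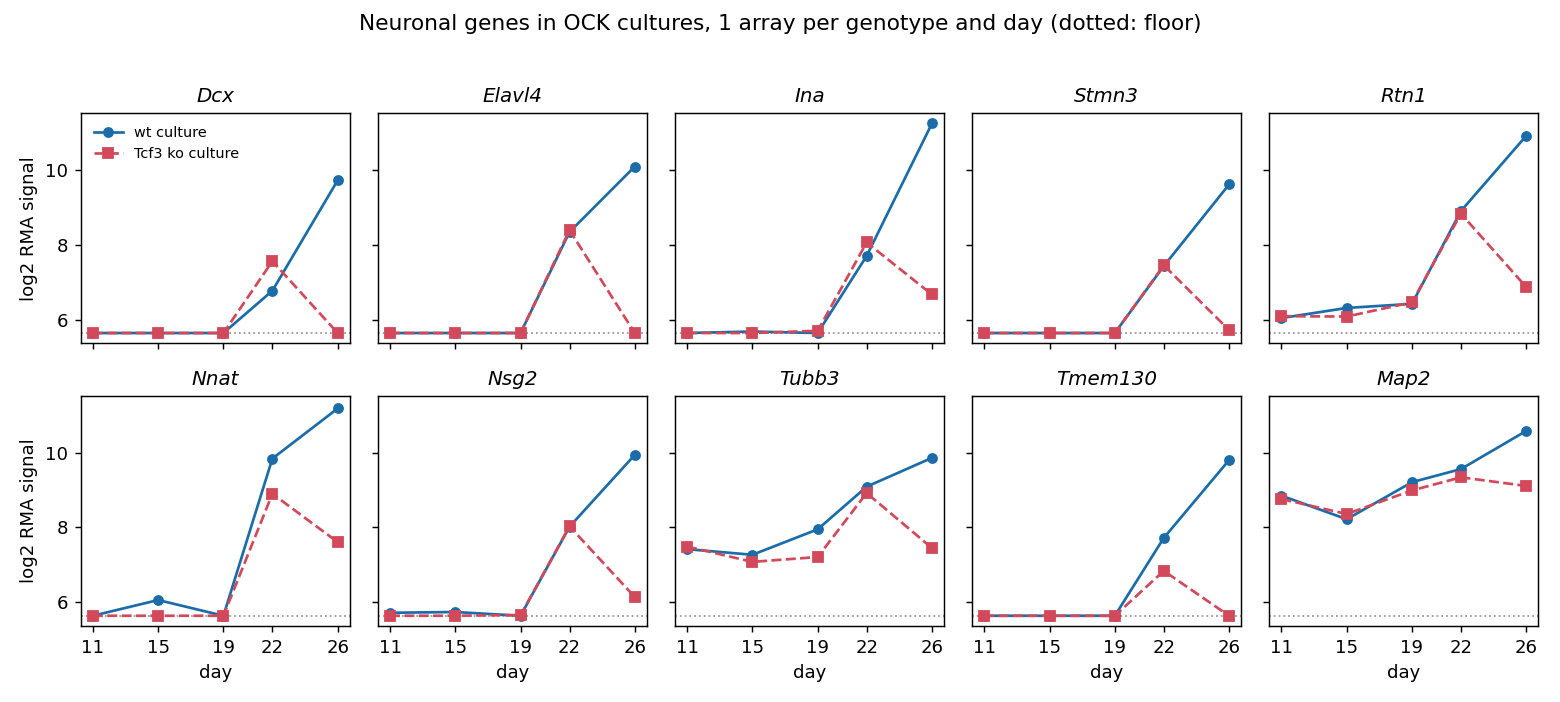
Log2 RMA signal (vertical axis) against day (horizontal axis) of the 10 genes in wt (blue circles) and Tcf3 ko (red squares) OCK cultures, 1 array per point, with the floor of 5.64 dotted. The curves of the genotypes lie close together up to day 22 and separate on day 26, where every wt point is above its ko point.

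Genes of the microtubule cytoskeleton included members with and without a signal before day 22. Dcx encodes doublecortin, a microtubule-binding protein of young migrating neurons. Its signal was at the floor on days 11, 15 and 19 in both genotypes, then in wt 6.77 and 9.72, in ko 7.56 and 5.64, on days 22 and 26. The ko culture was thus above the wt culture on day 22 (wt minus ko -0.79) and back at the floor on day 26. Stmn3 encodes a stathmin, a protein that destabilises microtubules in neurons. It was at the floor up to day 19 in both genotypes, then 7.43 and 9.61 in wt and 7.45 and 5.72 in ko. Tubb3, the neuronal beta-tubulin, was detected throughout. In wt it read 7.42, 7.27, 7.95, 9.09 and 9.86 on the 5 days, in ko 7.49, 7.08, 7.21, 8.92 and 7.45. By day 26 the ko culture was back within its own range of days 11 to 19. Map2 encodes a dendritic microtubule-associated protein. In wt it read 8.85, 8.22, 9.21, 9.56 and 10.58, in ko 8.76, 8.36, 8.99, 9.34 and 9.11. It was far above the floor on every culture array.

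Ina encodes alpha-internexin, a neurofilament protein of early neurons. In wt it read 5.64, 5.68, 5.64, 7.70 and 11.24 on the 5 days, in ko 5.64, 5.64, 5.70, 8.06 and 6.67. Elavl4 encodes HuD, an RNA-binding protein that stabilises neuronal transcripts. Its signal was at the floor up to day 19 in both genotypes, then 8.34 and 10.09 in wt and 8.39 and 5.64 in ko. Its levels on day 22 were nearly equal, and on day 26 it was not measurable in ko.

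The membrane genes followed the same course. Rtn1 encodes a reticulon of the endoplasmic reticulum found mainly in neuronal and neuroendocrine cells. In wt it read 6.04, 6.31, 6.42, 8.90 and 10.91, in ko 6.09, 6.08, 6.46, 8.83 and 6.87, never at the floor. Nnat encodes neuronatin, a small membrane protein from an imprinted gene active in the developing brain. In wt it read 5.64, 6.06, 5.64, 9.84 and 11.18, in ko 5.64, 5.64, 5.64, 8.90 and 7.61. On day 22 wt exceeded ko by 0.94. Nsg2 encodes an endosomal protein of neurons that takes part in receptor trafficking. In wt it read 5.72, 5.74, 5.64, 8.02 and 9.94, in ko 5.64, 5.64, 5.66, 8.03 and 6.14. Tmem130 encodes a membrane protein with little known function. It was at the floor on every array outside days 22 and 26, with 7.72 and 9.80 in wt on those days and 6.84 and 5.64 in ko.

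Day 26 chose the genes, so the culture tests used only days 11 to 22. Those days are not wholly independent of the choice either, because 8 of the 10 had been listed earlier for their slopes over the whole course. Signal on day 22 was compared with days 11, 15 and 19 over both genotypes, a comparison chosen after the values were seen. Nnat rose by 3.66 ± 0.20 (SE, 8 arrays; limma adjusted p = 0.00093), Rtn1 by 2.63 ± 0.15 (0.00093), Nsg2 by 2.34 ± 0.15 (0.00135), Ina by 2.22 ± 0.15 (0.00143) and Tubb3 by 1.60 ± 0.20 (0.0118). Map2 was higher by 0.72 ± 0.27 and did not pass (limma adjusted p = 0.0964). Of the 6 members with any signal above the floor up to day 19, 5 thus rose, against 6.67% of 12396 such genes. Only Rtn1, Tubb3 and Map2 were above the floor on every earlier array. Nnat, Ina and Nsg2 reached at most 6.06, 5.70 and 5.74 there and were at the floor on several of those arrays. Their differences are therefore lower bounds too, and their spread may be understated. Over all 13270 genes tested 14.8% passed in either direction. The other 4 members were at the floor on all 6 earlier arrays and could be tested only because of their day 22 signal, so their values are a description and their folds lower bounds. Elavl4 was at least 6.58-fold higher on day 22, Stmn3 at least 3.47-fold, Tmem130 at least 3.11-fold and Dcx at least 2.87-fold.

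Both day 22 arrays share a sampling day and were taken as independent. Ina, Nnat, Nsg2 and Rtn1 passed without any 1 of the 3 earlier days and without either day 22 array. Tubb3 did not pass without day 11, without day 15 or without either day 22 array, and Map2 passed without day 19. Over all genes 8 passed without day 11 and 8 without day 15, in place of 1960. Without day 15 the limma adjusted p of Ina, Nnat, Nsg2 and Rtn1 lay between 0.0478 and 0.0498, just under the threshold.

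A straight line over days 11 to 22, the test planned for the course, described the same values less well, since they stepped up on the last day. Rtn1 rose by 0.22 ± 0.063 per day (limma adjusted p = 0.0309), and this was 1 of the 10 against 38.8% of all genes. The other 9 had slopes of 0.072 (Map2) to 0.28 (Nnat) per day with limma adjusted p between 0.0578 and 0.0947. Rtn1 did not pass with the plain variance model (0.0936), with a line through the day means (0.0817), without day 15 (0.0927) or without day 22 (0.181), all limma adjusted p. Without day 19, 8 of the 10 passed, where 2312 of 13225 genes did. Among the 8 were the 4 with no signal before day 22, which could be tested only because of that day.

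Before day 26 no difference between the genotypes passed. The ko minus wt difference over days 11 to 22, with day as a block, ran from -0.34 ± 0.17 for Nnat to 0.20 ± 0.15 for Dcx (SE, 8 arrays). None of the 10 passed in limma (0 at an unadjusted p under 0.05), and 0.0% of the 13270 genes did, with 350 at an unadjusted p under 0.05. With limma's plain variance model 0 genes passed as well, with 590 at an unadjusted p under 0.05. The slopes of the genotypes over those days differed by -0.067 (Tmem130) to 0.061 (Dcx) per day. Here too 0 of the 10 and 0.0% of all genes passed in limma, with 147 genes at an unadjusted p under 0.05, and 0 with 257 by the plain model. With 1 array per genotype and day these tests do not show that the genotypes were alike.

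The single steps show how the cultures parted. From day 19 to day 22 the 10 genes differed by 0.35 (Map2) to 4.20 (Nnat) in wt and by 0.35 (Map2) to 3.26 (Nnat) in ko. At least a 2-fold higher signal was reached by 9 of 10 in wt, against 1.72% of 12700 genes, and by 9 of 10 in ko, against 2.32% of 12698 genes. On day 19, 7 of the 10 were at the floor in wt and 5 in ko. These genes counted only through their day 22 signal, so their steps, those of Nnat included, are lower bounds. On day 22 itself wt minus ko ran from -0.79 (Dcx) to 0.94 (Nnat) with a median of 0.03, and 0 of 10 were 2-fold higher in wt, against 1.12% of 12619 genes. From day 22 to day 26 the signal in wt was higher by 0.78 (Tubb3) to 3.54 (Ina), with 9 of 10 at least 2-fold, against 1.84% of 12694 genes. In ko it was lower over the same 4 days, from -0.23 (Map2) to -2.74 (Elavl4), and 9 of 10 were at least 2-fold higher on day 22 than on day 26, against 1.12% of 12618 genes. Day 26 values chose the genes, so the counts for the step from day 22 to day 26 follow largely from the choice, and nothing is read from them. Comparisons that share the day 22 arrays are not independent of each other. These are differences between single arrays with no replicate check, and no test was made of them.

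**Figure D2:**
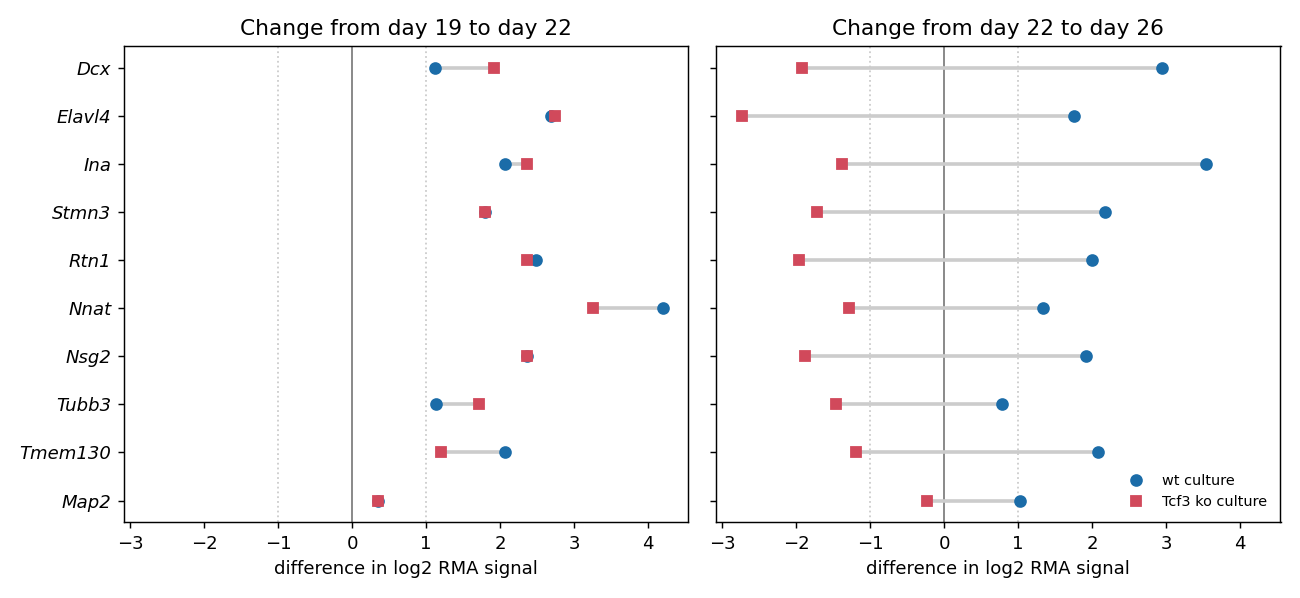
Difference in log2 RMA signal (horizontal axis) of each of the 10 genes between days 19 and 22 (left) and days 22 and 26 (right), wt culture in blue circles and Tcf3 ko culture in red squares, 1 array per day and genotype; dotted lines mark 2-fold. In the left panel all points lie to the right of 0, and in the right panel all wt points lie to the right and all ko points to the left.

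On day 26 wt exceeded ko by 1.47 (Map2) to 4.57 (Ina), with a median of 3.96. All 10 were at least 2-fold higher in wt, against 2.57% of 12709 genes, a count that the choice of the genes fixes. The fold was 23.7 for Ina, 16.4 for Rtn1, 14.7 for Stmn3, 14.0 for Nsg2, 11.9 for Nnat, 5.32 for Tubb3 and 2.77 for Map2. For the genes at the floor in ko it was at least 21.8 for Elavl4, at least 17.8 for Tmem130 and at least 16.9 for Dcx. Because a difference from the floor is a lower bound, the order of the genes at the top is not determined. Tubb3 had rank 57 among all genes by the recorded difference and Map2, the member with the smallest difference, rank 168. The widest recorded differences outside the 10 were those of Fabp7 and Ncan (both 3.66), Elavl3 (3.53), Cracd (3.48) and Dner (3.48), of which those of genes at the floor in ko are lower bounds.

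Further probe sets of the 10 genes were compared with the main ones, and 5 of them were at the floor on every array. All 16 probe sets above the floor somewhere were higher in wt than in ko on day 26, by 1.47 to 4.57, higher in wt on day 26 than on day 22, and higher in ko on day 22 than on day 26. The 2 other probe sets of Elavl4 read 7.43 and 6.54 in wt on day 22, against 7.64 and 6.74 in ko, and 8.93 and 8.57 in wt on day 26 with ko at the floor. Of the 2 other probe sets of Ina, 1 read 7.41 and then 10.06 in wt on days 22 and 26, and 7.84 and then 5.90 in ko. The other was low on day 22, at 5.67 in wt and 5.92 in ko, and 8.25 in wt on day 26 with ko at the floor. The second probe set of Dcx read 6.01 and 8.75 in wt and 6.61 and 5.64 in ko. A low probe set of Map2 differed from the main one, with 6.40, 5.91 and 7.24 in wt on days 19, 22 and 26, against 6.53, 5.96 and 5.64 in ko, so that it showed no higher level on day 22.

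Other genes of neurons were also higher in wt on day 26, while on day 22 they did not separate the genotypes. Of 36 other neuronal genes above the floor, 21 were at least 2-fold higher in wt on day 26 and 0 lower, with a median of 1.45 against -0.04 over all genes. Over all genes 2.57% were that much higher in wt on day 26 and 1.12% on day 22. A gene at the floor in ko counts through its wt signal alone, and its difference is a lower bound. The widest were the Elav family member Elavl3 (3.53), the neurofilament gene Nefm (3.43), the kinesin gene Kif5c (3.34) and the stathmin gene Stmn4 (at least 3.19). On day 22 1 of 32 was higher, with a median of 0.05. On the list of neurogenic transcription factors, which also holds Notch ligands, 10 of 21 were higher in wt on day 26 (median 0.93). The widest were Nhlh2 (at least 2.93), the Notch ligand Dll3 (2.88), Neurod1 (at least 2.77) and Insm1 (2.46). On day 22 0 of 20 were higher and 1 was lower. The lower one was Nhlh2, at the floor in wt and 6.72 in ko (-1.07, a lower bound in size). Of the neural progenitor genes 8 of 19 were higher and 1 lower (median 0.66), led by Fabp7 (3.66), Sox3 (2.02), Ncam1 (1.68) and Cdh2 (1.68). The growth-cone gene Gap43 (2.42) and the GABA-synthesis gene Gad1 (at least 2.62) were among the others higher in wt, and both were chosen for mention after their values were seen. Stmn2, whose product is a stathmin like that of Stmn3, did not follow the course, with signal between 9.02 and 12.31 in the cultures and a difference of 0.32 on day 26, and it too was chosen after its values were seen.

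**Figure D3:**
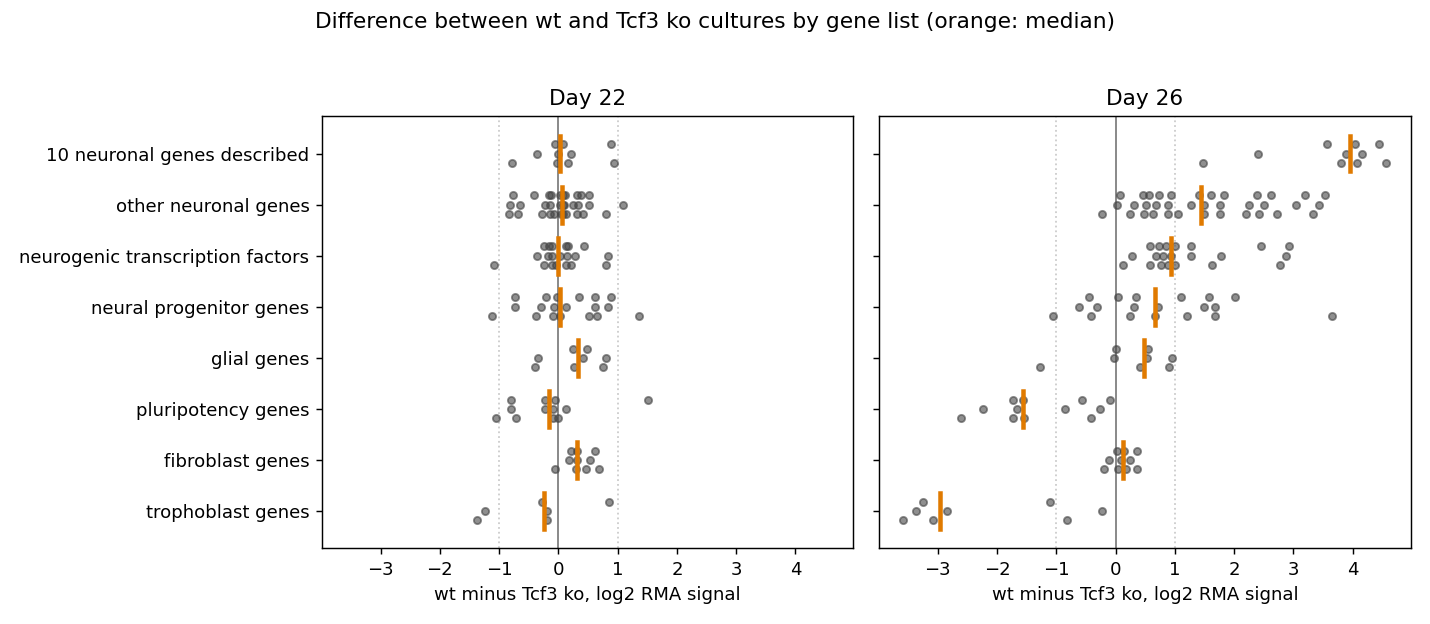
Difference between wt and Tcf3 ko cultures in log2 RMA signal (horizontal axis) on day 22 (left) and day 26 (right), 1 point per gene above the floor in at least 1 of the 2 arrays, by gene list (vertical axis), with the median in orange and 2-fold dotted. The 10 neuronal genes are centred at 0.03 on day 22 and at 3.96 on day 26, and the trophoblast and pluripotency lists are centred at -2.96 and -1.55 on day 26.

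Repressors of neuronal genes did not separate the cultures at that size. Of 14, 0 were at least 2-fold higher or lower in wt on day 26 (median -0.05). Rest in wt read 9.24, 9.49, 9.15, 9.92 and 9.53 on the 5 days, in ko 9.48, 9.28, 8.89, 9.98 and 10.24. On day 26 wt minus ko was -0.71. Rest was at its highest level on day 22 in wt (9.92) and on day 26 in ko (10.24). Day 22 against days 11 to 19, the added comparison, called 5 of the 14 higher, against 6.67% of all genes with signal on both sides, among them Rest (0.69 ± 0.17, limma adjusted p = 0.0399), its cofactor Rcor2 (1.09 ± 0.17, 0.0190) and Ptbp2, a splicing factor of neurons (0.85 ± 0.14, 0.0199). Counted in the same way, among genes with a signal in both sets of arrays, 9 of 28 other neuronal genes rose, with 2.99 ± 0.41 for Nefl and 2.67 ± 0.22 for Kif5c. On the neurogenic transcription factor list 3 of 15 rose, Insm1 and the Notch ligands Dll3 and Dll1. Of 17 progenitor genes 5 rose, with 3.85 ± 0.55 for Fabp7 and 3.75 ± 0.35 for Sox2. Sox2 is also on the pluripotency list, of which 5 of 9 rose (median 2.25), with 3.50 ± 0.86 for Dppa5a, 2.47 ± 0.59 for Nanog and 2.25 ± 0.50 for Tdgf1. Over the same days 4 of 10 fibroblast genes fell (median -0.61), among them Pdgfrb (-1.15 ± 0.25), and so did 2 of 3 macrophage genes, Lyz2 (-2.57 ± 0.53) and Csf1r (-1.62 ± 0.40). The part of these lists in the step of the neuronal genes was not tested.

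Genes of other cell types also differed between the cultures on day 26. Of 12 pluripotency genes 7 were at least 2-fold lower in wt and 0 higher (median -1.55), with Tfcp2l1 (-2.61), Dppa5a (-2.23), Zfp42 (-1.73) and Esrrb (-1.73) the widest. Of 8 trophoblast genes 6 were lower in wt (median -2.96), with the placental genes Prl7d1 (-3.57), Ctsj (-3.36), Prl7b1 (-3.25) and Tpbpa (-3.08), all 4 at the floor in wt. Zfp42 and Esrrb were at the floor in wt as well, so their differences and those of the 4 placental genes are lower bounds in size. Over all genes 1.16% were that much lower in wt and 2.57% that much higher. The summed linear signal of the trophoblast list went from 844 on day 22 to 984 on day 26 in wt, and from 908 to 4322 in ko. That of the pluripotency list went from 10416 to 9853 in wt and from 12984 to 18115 in ko. Over the same days the sum of the 10 neuronal genes went from 3975 to 13714 in wt and from 3406 to 1416 in ko. The fibroblast list went from 99342 to 115441 in wt and from 79732 to 103610 in ko, and 0 of its 10 genes differed 2-fold on day 26. Among 8 glial genes 0 were at least 2-fold higher in wt and 1 was lower (Olig1, -1.29), with a median of 0.47. The next widest, Mbp (0.96) and Slc1a3 (0.91), were higher in wt by under 2-fold. Gfap was at most 6.55 on any array, and Aqp4 was at the floor on all 18. Of the neural crest genes 1 of 6 was higher (Prph, 1.22), of the adipocyte genes 2 of 6 (Cidec, 1.07, and Adipoq, 1.06) and of the islet genes 1 of 2 (Sst, 1.38). Lower in wt were 1 of 3 macrophage genes (Cd68, -1.87) and 2 of 4 muscle genes (Mylpf, -1.22, and Des, -1.08). The part of these other cell types in the difference of the neuronal genes was not tested.

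Genes whose signal followed the 10 over all 18 arrays were sought among 13598 genes above the floor on at least 3 arrays. Pearson's r with the mean profile of the 10 was 0.97 for Spsb4, 0.96 for Ncan, 0.95 for Rab6b, Elavl3, Scg3, Cdk5r1 and Syt4, and 0.94 for Pcdh8, Ly6h and Gm3515. The lowest r were -0.83 for Slc35c2, -0.81 for Tbc1d22a and -0.79 for Bcl7b, whose signal varied by under 1 log2 unit over the arrays. These correlations are a description over arrays that share cultures and clones, and they rest largely on the 3 arrays of high neuronal signal (day 22 of both genotypes and day 26 of wt). Ncan, a brain proteoglycan gene, shows the shape, reading 5.64, 6.77 and 9.30 in wt on days 19, 22 and 26, against 5.64, 7.22 and 5.64 in ko. Among the 10 themselves, r with the mean of the other 9 was highest for Nsg2 (0.98) and lowest for Tubb3 (0.72) and Map2 (0.30). Over all 45 pairs r ran from -0.10 to 0.97 with a median of 0.80. In all, 29 of 17903 genes were at least 2-fold higher on day 22 than on day 19 in both genotypes. These 29 were then 2-fold higher in wt and 2-fold lower in ko on day 26, and 8 of them were among the 10. Tubb3 missed this pattern in wt after day 22, and Map2 in 3 of the 4 steps. Day 26 chose the 10, so their number among the 29 follows largely from the choice, and nothing is read from it.

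Outside the cultures the 10 genes split into those that were at the floor and those with a signal in pluripotent cells. Dcx and Tmem130 were at the floor on all 5 iPSC arrays and all 3 partial arrays, and Elavl4 was at the floor on all of them but 1, the first OCK ko clone, at 5.66. The other 7 had a signal in iPSC. Ina was 9.36 in the OSK wt clone, 8.75 and 8.77 in the OSK ko clones, and 6.49 and 8.28 in the OCK ko clones. Stmn3 was 8.03, then 7.19 and 7.14, then 7.02 and 8.33 in the same order, and Tubb3 8.57, then 9.07 and 9.03, then 8.69 and 9.94. The second OCK ko clone was thus above wt day 26 for Tubb3 (9.86), the 1 gene of the 10 for which that culture did not have the highest signal of all 18 arrays.

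**Figure D4:**
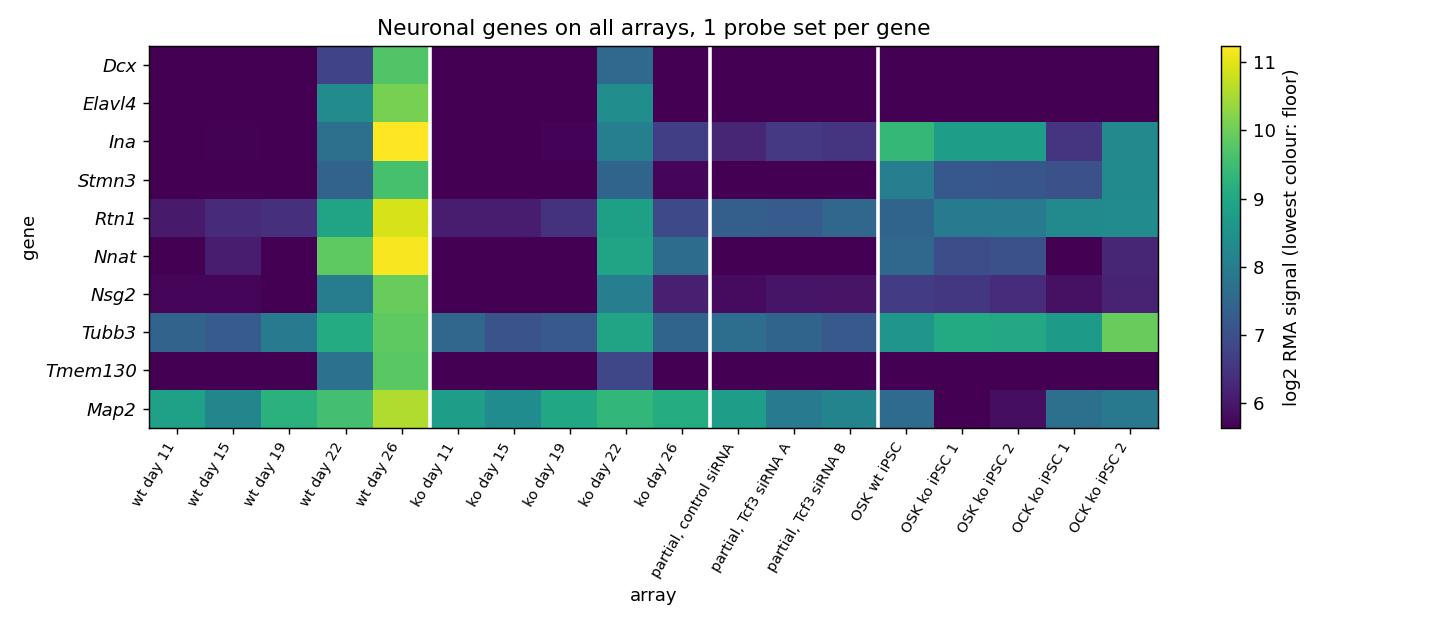
Log2 RMA signal (colour) of the 10 genes (rows) on all 18 arrays (columns), with white lines between wt cultures, ko cultures, the partial iPSC clone and the iPSC clones. The column wt day 26 is bright for all 10 genes. In the day 22 columns all 10 are above the floor, but some are dim, such as Dcx in wt (6.77) and Tmem130 in ko (6.84). Dcx, Elavl4 and Tmem130 stay dark in every clone.

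In OSK iPSC clones the comparison of ko with wt sets 2 clones without Tcf3 against 1 clone with it, so that clone and genotype cannot be told apart. Map2 was 7.60 in the wt clone and 5.64 and 5.84 in the ko clones, 1 of which was at the floor. It was lower in ko (difference -1.86 ± 0.16, SE; limma adjusted p = 0.0212), 1 of 7 members tested, against 0.687% of 12670 genes. The others did not pass. The ko minus wt difference was 0.48 ± 0.13 for Rtn1 (limma adjusted p = 0.194), -0.54 ± 0.23 for Nnat (0.426) and -0.87 ± 0.47 for Stmn3 (0.536). It was -0.60 ± 0.64 for Ina, 0.48 ± 0.46 for Tubb3 and -0.18 ± 0.16 for Nsg2, with limma adjusted p from 0.729 to 0.795. Of other lists, 2 of 17 progenitor genes were lower in ko (Sox1, -1.77, and Fabp7, -1.44), as were 2 of 4 muscle genes (Acta1, -1.49, and Actc1, -1.28) and 1 of 10 fibroblast genes (Postn, -1.23), while 0 of 29 other neuronal genes passed. Fabp7, Acta1, Actc1 and Postn were at the floor in both ko clones and could be tested only through the single wt array. Their differences are therefore a description and lower bounds in size. The single wt clone was assumed to vary like the groups of 2. The call of Map2 was lost with the plain model (limma adjusted p = 0.0659) and when only the 5 iPSC arrays were fitted (0.124). It was also lost without either ko clone, where the difference was -1.76 without the first and -1.95 without the second. With the mean of its probe sets the difference was -0.46 (limma adjusted p = 0.170). That mean is no separate check, because only the main probe set of Map2 was ever above the floor in the clones.

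Between ko clones made with OCK and with OSK, Map2 and Nnat differed in opposite directions. Map2 was 7.71 and 7.91 in the OCK clones, higher than in the OSK clones by 2.07 ± 0.13 (limma adjusted p = 0.00367). With the mean of its probe sets the difference was 0.52, but only the main probe set was ever above the floor in these clones. Nnat was 5.64 and 6.25 in the OCK clones and 6.97 and 7.03 in the OSK clones, a difference of -1.06 ± 0.19 (limma adjusted p = 0.0246). The call of Nnat was lost with the plain variance model (0.0990), in the fit of the 5 iPSC arrays (0.0847) and with the replicate block (0.0755), all limma adjusted p. These were 2 of 8 members tested, against 10.7% of 12905 genes. Ina did not pass, with a difference of -1.37 ± 0.52 (limma adjusted p = 0.151), nor did Rtn1 (0.40 ± 0.10, 0.0656) or Nsg2 (-0.40 ± 0.13, 0.104). The first minus the second OCK clone was -1.79 for Ina, -1.30 for Stmn3, -1.24 for Tubb3 and -0.60 for Nnat, whereas the OSK ko clones differed by at most 0.20 for any of the 10. A fit without 1 of these clones leaves 1 array in its group, so only differences are given and nothing is read from what passed there. For Map2 the difference was 1.97 without OSK ko clone 1 and 2.17 without OSK ko clone 2. It was 2.17 without OCK ko clone 1 and 1.97 without OCK ko clone 2. For Nnat the differences were -1.09, -1.03, -0.76 and -1.36 in the same order.

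Other neural genes split between these clones as well. Of 30 other neuronal genes 3 were higher in OCK ko clones (among them Nefm, 1.59 ± 0.30, and Dpysl3, 1.11 ± 0.22) and 3 lower (among them Crmp1, -2.50 ± 0.48, and Celf4, -1.50 ± 0.32) in limma, with adjusted p between 0.0277 and 0.0375. The neurogenic factor Neurod1 lay between 8.84 and 9.24 in the OSK clones and at the floor in both OCK ko clones, and Sox11 (-1.67 ± 0.20) and Sox4 (-1.19 ± 0.11) were lower too.

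The partial iPSC clone held less of most members than the iPSC clones. With groups weighted equally, Ina was lower (-2.12 ± 0.40, SE; limma adjusted p = 0.00409), at 6.24, 6.56 and 6.49 on the 3 partial arrays. Tubb3 was lower (-1.48 ± 0.29, limma adjusted p = 0.00454), at 7.67, 7.44 and 7.20. Rtn1 (-0.55 ± 0.08) and Nsg2 (-0.49 ± 0.10) were lower too, with limma adjusted p = 0.00138 and 0.00539. Stmn3 and Nnat were at the floor on all 3 partial arrays, so that they could be tested only because of their iPSC signal. Stmn3 was at least 3.95-fold higher in the iPSC clones. Nnat had a difference of -1.18, with 1 OCK ko clone also at the floor. Map2 went the other way, at 8.77, 7.93 and 8.17, which was higher than in iPSC by 1.36 ± 0.10 (limma adjusted p = 7.67e-05). With the mean of its probe sets the difference was 0.34, diluted by probe sets at the floor on all these arrays. All 5 members with a signal on both sides passed, 4 lower and 1 higher, against 66.5% of 12060 such genes and 64.7% of all 13571 tested, so most genes of any kind differed here. The 3 partial arrays are 1 clone and the siRNAs differ between them.

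After Tcf3 siRNA in the partial clone, 0 of 5 members tested passed in limma, against 0.111% of 12636 genes. Map2 read 8.77 after the control, 7.93 after siRNA A and 8.17 after siRNA B, a difference of -0.72 ± 0.16 (limma adjusted p = 0.175; unadjusted p = 0.00442). It was the 1 member at an unadjusted p under 0.05, and 0 members passed by limma's plain model. In a fit of the 3 partial arrays alone Map2 passed. The difference was 0.29 ± 0.64 for Ina, 0.04 ± 0.13 for Rtn1, 0.14 ± 0.16 for Nsg2 and -0.35 ± 0.46 for Tubb3, with limma adjusted p from 0.768 to 0.934. The other 5 were at the floor on all 3 arrays, so a lower level could not have been seen. The single control array was assumed to vary like the groups of 2.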

How the data were processed

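RNA of 18 samples was hybridised to Affymetrix mouse arrays, and groups, days and clone numbers came from the sample labels. The deposited table holds log2 values made by the authors with RMA, per the submitters' processing notes, whose version and settings no source used here gives. Values below 50 had been set to that floor (5.64 on the log2 scale), which is seen in the deposited values and named by no label. Between 44.9% and 46.6% of the values of each array were at it.

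Names came from the platform annotation: 31076 probe sets had 1 gene symbol, 636 several and 8796 were not listed there. The probe set with the highest mean stood for its gene. Promoter sequences and names of the 10 genes were matched by symbol to RefSeq tables of GRCm38.p6.

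Tests used limma 3.58.1 in R 4.3.3 with Benjamini-Hochberg adjustment over all genes tested and a threshold of 0.05. The prior variance was estimated without genes that had any floored array in the fit. Those genes were given at least the prior variance, and a gene floored throughout a comparison was not tested. The code was tested on simulated data. Clones were fitted together on 8 arrays with a mean per group, cultures on the 8 arrays of days 11 to 22. Comparisons of single arrays were described at a threshold of 2-fold among genes above the floor on at least 1 of the arrays.

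The members and all gene lists (other neuronal, neurogenic transcription factor, neural progenitor, repressor, glial, neural crest, pluripotency, fibroblast, macrophage, adipocyte, muscle, trophoblast and islet genes) were chosen with earlier results of these data known. Beyond the 10, genes were named by rule: the 10 most like and 3 least like in profile, the 5 with the widest wt minus ko difference on day 26, up to 4 per list and comparison by size of difference, Tcf7l1 and Rest. Gap43, Gad1 and Stmn2 were chosen after their values were seen, and marker genes named to check the labels (among them Aqp4) stand outside the rule. The alternatives were limma's plain variance model, quantile normalization, median centring, the mean of probe sets, genes never at the floor, every probe set, leaving out arrays or days, smaller fits and a replicate block.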

Additional observations from a re-analysis of the deposited data

Results flagged for a closer look

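Between days 22 and 26 every wt value was higher and every ko value lower on the later day, so the genotypes moved in opposite directions, with 1 array each. The change in wt minus the change in ko was at least 4.87 for Dcx and at least 4.50 for Elavl4, both at the floor in ko on day 26. It was 4.93 for Ina, 3.89 for Stmn3 and 3.96 for Rtn1 on the log2 scale. It was 2.63 for Nnat, 3.81 for Nsg2, 2.25 for Tubb3 and 1.25 for Map2, and at least 3.28 for Tmem130, also at the floor in ko. The day 26 arrays chose these genes, and the difference was not tested.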

How the results depend on the processing

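The alternatives turned no direction of the called members. The median wt minus ko difference on day 26 (3.96) was 3.56 with the mean of probe sets and 3.11 over all 21 probe sets. For the siRNA 0 members passed, and 1 in the fit of 3 partial arrays, where 412 genes passed in place of 14 (304 by the plain model). For OSK ko against wt 1 member passed, and 0 with the plain model, with the mean of probe sets, in the fit of 5 iPSC arrays, and (0 to 0) without either ko clone. There 87 genes passed, against 161 with the plain model, 28 never at the floor and 0 in the 5 iPSC arrays or without either clone. The 0 members among genes never at the floor are no lost calls, since Map2 and Nnat had floored arrays and were left out of that set. The mean of probe sets does not check Map2 in clones, since only its main probe set was ever above the floor there. For OCK against OSK ko clones 2 members and 1377 genes passed. The counts were 1 and 844 with the plain model, 0 and 1125 never at the floor, 1 and 294 in the 5 iPSC arrays, and 0 to 5 members and 8 to 3614 genes without 1 clone. With the replicate block 1 member and 142 genes passed, and 0 members and 2 genes with crossed numbers, an alternative chosen after seeing the data. Same-numbered clones shared only a number (r = -0.121 between their deviations over 12905 genes). For partial against iPSC clones 7 members passed, and all 4 that were in the set never at the floor. The change per day called 1 member and 5151 genes. It called 0 and 3996 with the plain model, 0 and 1862 with a line through the day means, and 0 to 8 members without 1 day, with 0 genes without day 22 and 2312 without day 19. Day 22 against days 11 to 19, with all its alternatives chosen after seeing the data, called 9 members (4 of them with no earlier signal) and 1960 genes, 2 of the 3 members in the set never at the floor, and 5 to 10 members without 1 day or array. The genes called were 8 without day 11 or day 15, 6660 without day 19, 140 without the wt and 23 without the ko array of day 22, and 1284 by the plain model. The cause of these shifts was not tested. The single OSK wt and control siRNA arrays could not be left out. The floor limits what can be seen, since a member recorded there has no measured decrease.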
